A study of Mus musculus with 6 samples.

Results

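Disome footprints of 10 marker genes of liver cells other than hepatocytes were described in mouse liver, among 8941 genes listed in every table. The set was fixed by name: Lyz2, Cd74, H2-Aa, H2-Ab1, Clec4f, Cd5l, Stab2, Kdr, Dcn and Vim, each tied to 1 Ensembl identifier, and all 10 were found. The identifiers are, in that order, ENSMUSG00000069516, ENSMUSG00000024610, ENSMUSG00000036594, ENSMUSG00000073421, ENSMUSG00000014542, ENSMUSG00000015854, ENSMUSG00000035459, ENSMUSG00000062960, ENSMUSG00000019929 and ENSMUSG00000026728. The rule names genes by cell type and holds no measured value or threshold. A disome footprint is the piece of messenger RNA that a pair of ribosomes, stacked against each other, protects from nuclease, so it marks where translation had stalled or collided. The livers came from male C57BL/6JRj mice of 11 to 12 weeks, an inbred strain, kept for 2 weeks in cycles of 12 h light and 12 h dark and also collected in that cycle. The groups were zeitgeber time (ZT, hours after lights on) 0, ZT2 and ZT12, with 2 libraries each. Every library was 1 pool of lysates from 2 mice, made in buffer with cycloheximide and digested with 650 U RNase I for 45 min. Whole liver was lysed and no cell type was sorted or enriched, so each value mixes all cells of the organ.

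Hepatocytes make up most of the liver's mass and secrete most plasma proteins. Around them lie Kupffer cells, the resident macrophages of the sinusoids, the perforated endothelium that lines those sinusoids, and stellate cells, which store vitamin A and make matrix. Antigen-presenting cells display peptides on MHC class II molecules, pairs of an alpha and a beta chain that are assembled on the invariant chain. These genes are commonly used to judge how much of a liver sample comes from cells other than hepatocytes. In bulk liver, fewer cells of a type and less of its RNA per cell cannot be told apart, and neither can a change in messenger RNA amount and one in ribosome stacking, since transcript levels were not analysed here.

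The tables carry no symbols and Ensembl identifiers are absent from the gene table used as reference (0 of 49997 entries). Not one of the 32 hepatocyte genes on the comparison list (0 matched), such as albumin and the apolipoproteins, could therefore be tied to a row, and of 125 symbols on all cell type lists only the 10 markers were matched. Their levels were set against the distribution of all listed genes and against the 100 most abundant genes, which carry no names here. The label of the tissue could likewise not be checked against hepatocyte genes.

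RefSeq held a promoter window, from 250 bases before to 50 bases after the transcription start, for 7 of the 10 markers (build GRCm38.p6). Cd74, H2-Ab1 and Dcn had no window. No value in the tables bears on promoters. The 250 bases before the H2-Aa start are shown because its gene and H2-Ab1 are neighbours on chromosome 17 and the capitals mark the Y box, CTGATTGG, which MHC class II promoters are known to share. The Lyz2 window is shown because Lyz2 had the highest level of the set and the capitals mark its start codon and the bases after it, the first that a translating ribosome reads. The H2-Aa stretch lies at chr17:34287824-34288073 on the minus strand and the Lyz2 window at chr10:117282223-117282522 on the minus strand.
H2-Aa: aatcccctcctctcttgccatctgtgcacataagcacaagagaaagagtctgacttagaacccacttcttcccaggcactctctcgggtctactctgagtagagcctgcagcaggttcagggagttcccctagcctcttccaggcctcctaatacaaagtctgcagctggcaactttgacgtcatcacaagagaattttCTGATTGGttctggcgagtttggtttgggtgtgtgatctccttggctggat
Lyz2: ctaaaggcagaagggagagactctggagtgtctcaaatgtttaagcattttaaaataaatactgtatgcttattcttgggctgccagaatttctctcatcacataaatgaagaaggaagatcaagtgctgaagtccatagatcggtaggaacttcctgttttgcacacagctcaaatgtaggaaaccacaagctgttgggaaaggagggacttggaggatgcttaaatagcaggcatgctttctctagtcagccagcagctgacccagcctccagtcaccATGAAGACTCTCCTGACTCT
The Y box letters, searched on both strands, were found in 1 of the 7 windows, that of H2-Aa, 51 bases before its start. They were found in 4.10% of 32851 windows of the same length. H2-Aa was the only class II gene with a window, so Cd74 and H2-Ab1 were not searched. The E-box CACGTG, the element that the clock proteins CLOCK and BMAL1 bind, was found in 0 of the 7 windows and in 7.15% of all. The D-box TTATGTAA, bound by the PAR bZIP factors, was found in 0 of 7 and in 0.938% of all. These matches describe letters in the windows.

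Markers of non-hepatocyte cells were detected in all 6 libraries, at levels between those of a typical gene and those of the abundant liver genes. Their median was 7.16 times the median gene of the same library (SD 0.915, n = 6 libraries), and the median of the 100 most abundant genes was in turn 56.7 times the median marker (SD 10.3, n = 6). Of the 10 markers, 9 had a mean above the median gene, at 7.47 RPKM (reads per kilobase, scaled by library), and 7 were above the upper quartile of 28.7 RPKM. None was among the 100 most abundant genes (0 of 10), of which the lowest had a mean of 1435 RPKM. The most abundant gene, at 66150 RPKM, was 195.8 times as high as Lyz2. Together the markers took 0.0651% of recovered reads in ZT2 replicate 2 (95% exact Clopper-Pearson interval 0.0633 to 0.0669) and 0.0922% in ZT0 replicate 2 (0.0900 to 0.0943), the lowest and the highest library. These intervals cover counting error only. The shares use the reads of H2-Aa as recovered, which may be too low, as given below.

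**Figure D1:**
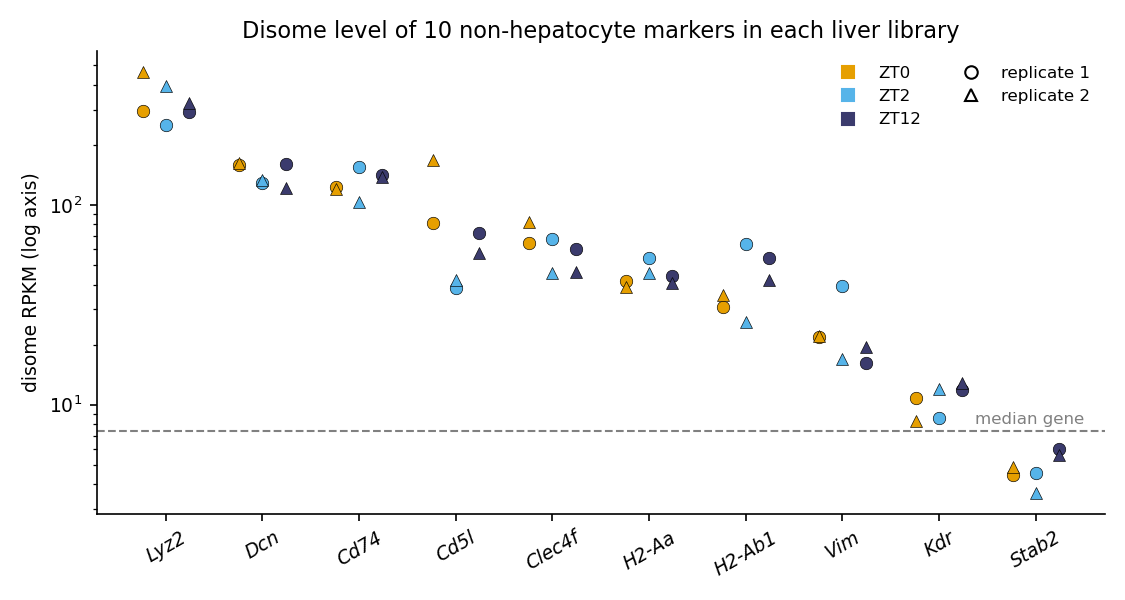
Disome RPKM (log axis) of each marker in each library, in order of mean level, with colours for the time points and symbols for the replicates. The dashed line is the median gene; Stab2 lies below it in all 6 libraries and the other 9 markers lie above it in all 6.

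Among the markers, the mean level over 6 libraries spanned 69.6-fold. Lyz2 stood first with 337.9 RPKM ± 78.4, followed by Dcn with 144.3 ± 18.2, Cd74 with 130.2 ± 18.0, Cd5l with 76.5 ± 47.4 and Clec4f with 61.1 ± 13.8 (SD, n = 6). H2-Aa had 44.2 RPKM ± 5.54, H2-Ab1 42.0 ± 14.5, Vim 22.7 ± 8.61, Kdr 10.7 ± 1.87 and Stab2 4.85 ± 0.852 (SD, n = 6). Neighbours in this order kept it in all 6 libraries for Lyz2 over Dcn, Clec4f over H2-Aa, H2-Ab1 over Vim, Vim over Kdr and Kdr over Stab2. The order was not resolved within their spread for Dcn and Cd74 (4 of 6 libraries), Cd74 and Cd5l (5 of 6), Cd5l and Clec4f (4 of 6) and H2-Aa and H2-Ab1 (3 of 6).

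Markers with a longer coding sequence tended to have a lower RPKM, a relation partly built into the unit, since RPKM divides reads by that length. Because the RPKM values carry whole reads, each gene's coding length could be recovered, up to a factor shared by all its values. As recovered it ranged from 384 nt for H2-Aa to 7677 nt for Stab2. For H2-Aa a shared factor of 2 in all 6 libraries would be invisible, so its length may be 768 nt and its reads 226 to 444 in place of 113 to 222; its RPKM is unaffected. Across the 10 markers, with H2-Aa at 384 nt, Spearman's rho of mean RPKM with coding length was -0.576. It was not computed with H2-Aa at 768 nt. Across the 8355 tested genes it was -0.403. Genes are not independent replicates, so both are descriptions.

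Each marker was therefore also set against the tested genes with a coding length within 20% of its own, and all 10 lay above the median of those genes. Lyz2 was above 92.3% of 571 such genes, whose median was 23.0 RPKM. Kdr, close to the median of all genes, was above 83.1% of 544 genes of like length, whose median was 3.50 RPKM. Stab2, below the median of all genes, was above 64.3% of 129 genes of like length, whose median was 3.33 RPKM. With H2-Aa at 384 nt the lowest place was its own, above 58.8% of 468 genes. If its length is 768 nt it was above 72.8%, and the lowest place was that of Stab2. In reads the markers differed less than in RPKM, from a mean of 151.2 per library for H2-Aa to 1381 for Dcn, a 9.13-fold span. If the reads of H2-Aa are doubled, to a mean of 302.3, the lowest mean is 268.2 for Vim and the span is 5.15-fold.

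**Figure D2:**
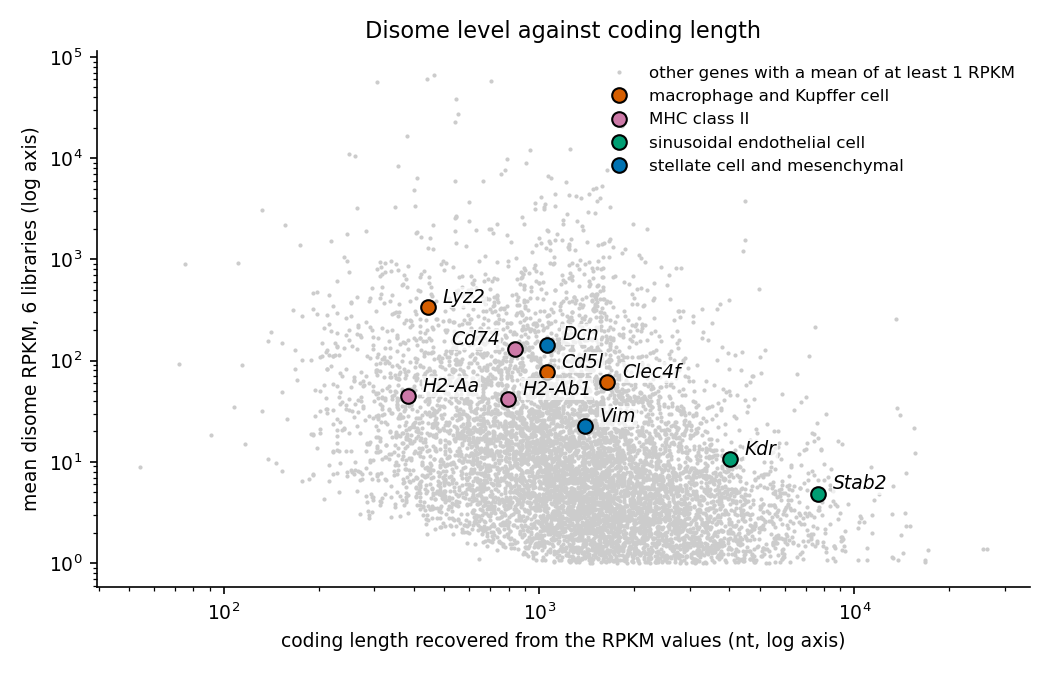
Mean disome RPKM over 6 libraries against coding length (both log axes) for all tested genes in grey and the 10 markers coloured by cell class. Stab2 at 7677 nt has 4.85 RPKM and Lyz2 at 444 nt has 337.9 RPKM; H2-Aa is drawn at 384 nt.

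Libraries of the same time point differed in several markers by more than counting error, and this set how finely the course over the day could be read. At ZT0 the ratio of replicate 2 to replicate 1 excluded 1 by its 95% counting interval (exact, conditional on the summed reads) for 4 of 10 markers (25.9% of all tested genes), at ZT2 for 7 (55.2%) and at ZT12 for 6 (53.5%). Nothing particular to the markers is read from these counts. They use the reads of H2-Aa as recovered, and doubled reads would narrow its intervals, which was not computed. Over the markers, the median absolute log2 difference of the replicates came to 0.149 for the ZT0 pair, 0.498 for the ZT2 pair and 0.202 for the ZT12 pair, beside 0.191, 0.403 and 0.274 over all tested genes. Cd5l at ZT0 was 2.06 times as high in replicate 2 as in replicate 1 (interval 1.87 to 2.27), a wider difference than in 99.3% of 887 genes with similar reads. Lyz2 at ZT0 was 1.58 times as high in replicate 2 (1.45 to 1.71), wider than 98.3% of 780 such genes. At ZT2 it was replicate 1 that was higher for H2-Ab1, 2.45-fold (2.02 to 2.99), and for Vim, 2.34-fold (1.95 to 2.82), each wider than at least 97.05% of genes with similar reads. ZT2 replicate 2 is also the library with the most genes listed at 0, 250 of 8941, against 97 in ZT2 replicate 1 and 4 to 52 in the others; the part of this in the marker values was not tested.

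**Figure D3:**
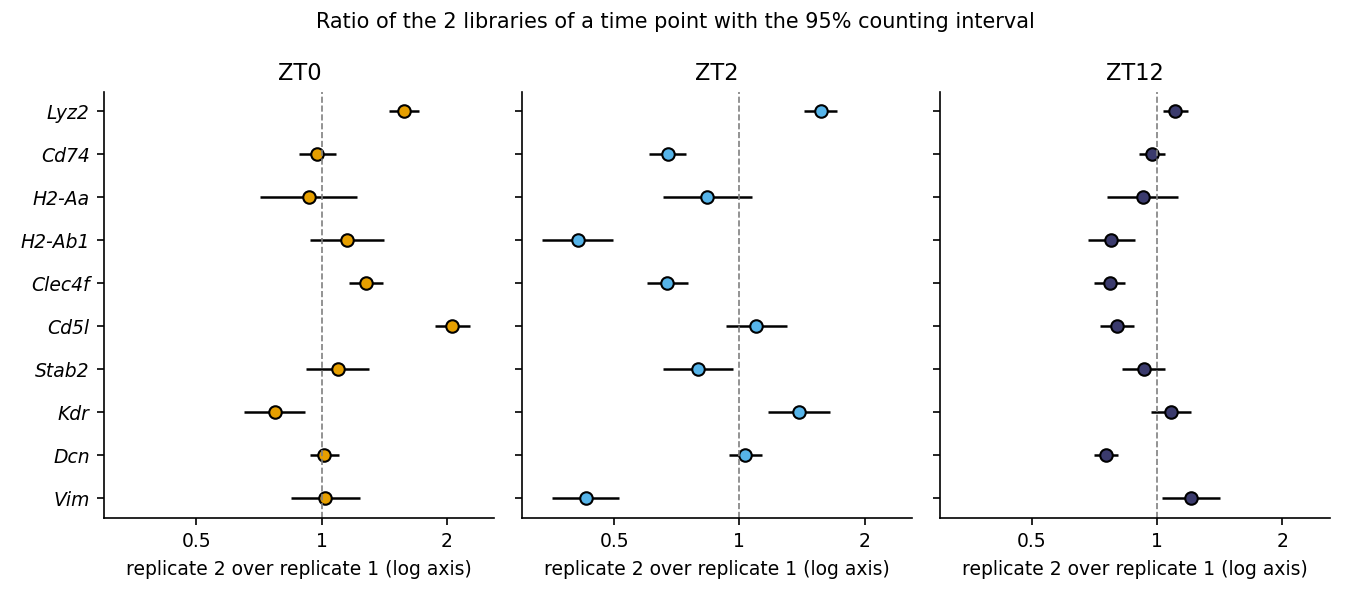
Ratio of replicate 2 to replicate 1 (log axis) for each marker at each time point, with its 95% counting interval. Cd5l and Lyz2 at ZT0 lie to the right of 1 with intervals that exclude it, and H2-Ab1 and Vim at ZT2 lie below 0.5.

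No marker changed between time points by limma's test across all genes. In ZT2 against ZT0, 0 of 10 passed an adjusted p of 0.05, where 0.0239% of the 8355 tested genes did. In ZT12 against ZT0, 0 of 10 passed, where 0.946% of all genes did, and in ZT12 against ZT2, 0 of 10 passed, where 2.06% did. The moderated F test over the 3 time points also called 0 of 10, where it called 1.26% of all genes. Without adjustment, 1 marker had p under 0.05 in limma in ZT2 against ZT0 (13.7% of all genes), 1 had it in ZT12 against ZT0 (14.5%) and 0 in ZT12 against ZT2 (19.2%), and 1 did in the F test (18.6%); each time it was Cd5l. Counts of 0 among 10 genes lie close to the shares called among all genes, so they say nothing particular about the markers as a set.

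The log2 changes of the markers lay on both sides of 0. In ZT2 against ZT0, 5 were higher and 5 lower, with a median log2 change of -0.05 beside -0.04 over all tested genes, and in ZT12 against ZT0 also 5 and 5, with a median of -0.06 beside -0.01. In ZT12 against ZT2, 6 were higher and 4 lower, with a median of 0.11 beside 0.03. The time points' libraries did not overlap for 3 of 10 markers in ZT2 against ZT0 (46.4% of all genes), for 7 of 10 in ZT12 against ZT0 (54.4%) and for 3 of 10 in ZT12 against ZT2 (45.9%). The median absolute log2 change was 0.26, 0.28 and 0.23 in these comparisons, beside 0.30, 0.30 and 0.34 over all genes. Over 2-fold in either direction on the log2(RPKM + 1) scale lay 1 of 10 markers, Cd5l, in ZT2 against ZT0 (5.76% of all genes), 0 of 10 in ZT12 against ZT0 (5.72%) and 0 of 10 in ZT12 against ZT2 (9.05%). These comparisons share libraries pairwise and are not independent of each other.

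**Figure D4:**
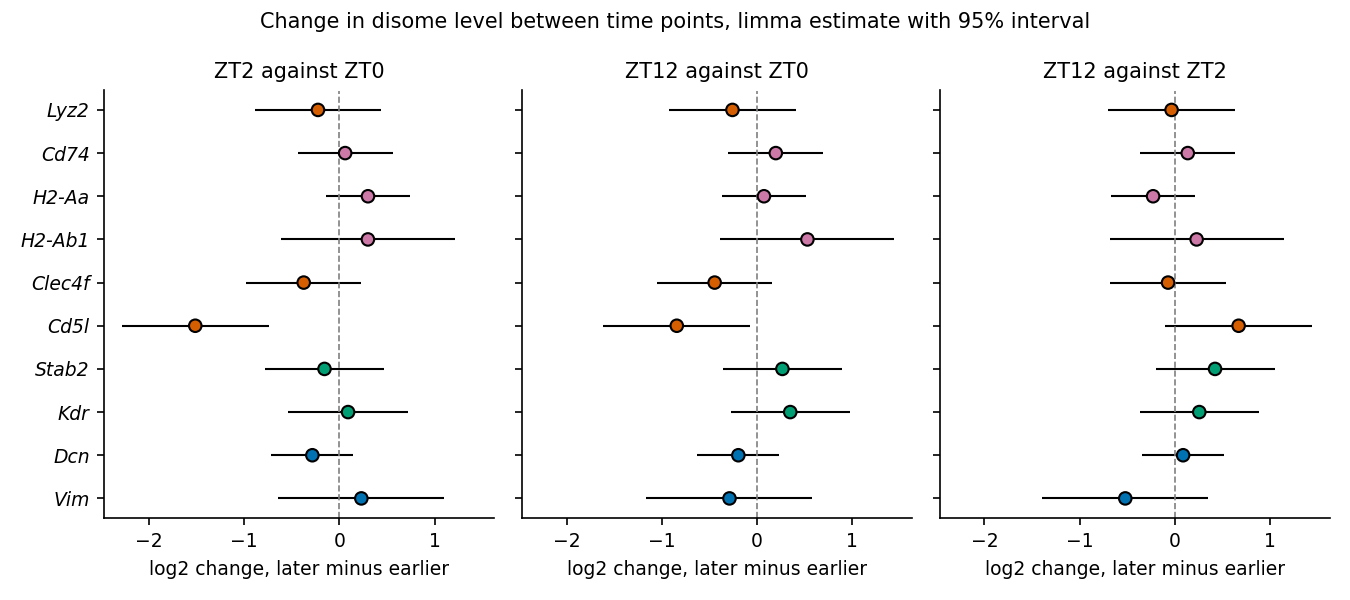
Log2 change (later minus earlier time point, log2(RPKM + 1) scale) of each marker with limma's 95% interval, in the 3 comparisons. Intervals cover 0 for every marker but Cd5l, whose interval lies below 0 in ZT2 against ZT0 and in ZT12 against ZT0; no marker passes the test adjusted over all genes.

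Of the macrophage markers, Cd5l, a scavenger-receptor protein that macrophages secrete and that protects cells from apoptosis, had the widest range of the set. It had 81.3 and 167 RPKM in the ZT0 libraries, 38.4 and 42.1 RPKM in the ZT2 libraries and 72.1 and 57.8 RPKM in the ZT12 libraries, from 250 to 1361 reads per library. Both ZT0 libraries lay above all later ones and both ZT2 libraries below all others, so the groups did not overlap in any comparison. At ZT2 it averaged 40.2 RPKM ± 2.68, against 124.2 RPKM ± 60.7 at ZT0 (SD, n = 2 each), a 3.09-fold lower mean. The log2 change was -1.51 ± 0.33 (SE; 95% interval -2.28 to -0.74), with an unadjusted p of 0.0022 and an adjusted p of 0.191 in limma. For ZT12 against ZT0 the log2 change was -0.84 ± 0.33 (SE), with an adjusted p of 0.30 in limma, and for ZT12 against ZT2 it was 0.67 ± 0.33 (SE), with 0.318. The F test gave Cd5l an adjusted p of 0.127 in limma. Without ZT0 replicate 2 the ZT2 against ZT0 log2 change was -0.998 and that of ZT12 against ZT0 was -0.33, values that rest on a single ZT0 library.

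Lyz2 encodes lysozyme M, an enzyme of macrophages and neutrophils that cuts bacterial cell walls. It had 295 and 465 RPKM in the ZT0 libraries, 253 and 396 RPKM in the ZT2 libraries and 294 and 325 RPKM in the ZT12 libraries. All 3 time points overlapped, and its log2 change was between -0.26 and -0.03 in the 3 comparisons, with adjusted p of at least 0.736 in limma. Next to Lyz2 on chromosome 10 lies Lyz1, a near-identical paralog, and how reads that fit both were counted is not given in the sources used here, so the Lyz2 level is uncertain to that extent.

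Clec4f encodes a galactose-binding lectin that in mouse is restricted to Kupffer cells, and so is the most specific macrophage marker of the set. It had 64.2 and 81.9 RPKM in the ZT0 libraries, 68.0 and 45.6 RPKM in the ZT2 libraries and 60.4 and 46.5 RPKM in the ZT12 libraries. Both ZT12 libraries lay below both ZT0 libraries, with a log2 change of -0.45 ± 0.26 (SE; 95% interval -1.05 to 0.16) and an adjusted p of 0.484 in limma. For ZT2 against ZT0 the groups overlapped, at a log2 change of -0.37 ± 0.26 (SE) with an adjusted p of 0.551 in limma. All 3 macrophage markers had their highest value in ZT0 replicate 2.

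Of the MHC class II genes, Cd74 encodes the invariant chain, which guides the alpha and beta chains to the compartment where they are loaded with peptide. Cd74 had 123 and 120.1 RPKM in the ZT0 libraries, 155 and 104 RPKM in the ZT2 libraries and 142 and 138 RPKM in the ZT12 libraries. Both ZT12 libraries lay above both ZT0 libraries, while those of ZT2 enclosed all others. Its log2 change for ZT12 against ZT0 was 0.20 ± 0.21 (SE; 95% interval -0.30 to 0.70), with an adjusted p of 0.731 in limma.

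The alpha and beta chains of the I-A molecule are encoded by H2-Aa and H2-Ab1. H2-Aa had 41.8 and 38.8 RPKM in the ZT0 libraries, 54.4 and 45.6 RPKM in the ZT2 libraries and 44.1 and 40.7 RPKM in the ZT12 libraries. Its ZT2 libraries were the highest of the 6 and did not overlap with either other time point, at a log2 change of 0.30 ± 0.19 (SE) against ZT0 with an adjusted p of 0.508 in limma. H2-Ab1 had 30.7 and 35.2 RPKM in the ZT0 libraries, 63.6 and 25.9 RPKM in the ZT2 libraries and 54.4 and 42.2 RPKM in the ZT12 libraries. Both ZT12 libraries exceeded both ZT0 libraries, with a log2 change of 0.53 ± 0.39 (SE; 95% interval -0.38 to 1.44) and an adjusted p of 0.581 in limma, and ZT2 held both the highest and the lowest library. All 3 class II genes were highest in ZT2 replicate 1.

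Across the 6 libraries, 8 pairs of markers of the same class were compared. Cd74 and H2-Ab1 varied together, with Pearson's r = 0.95 (exact permutation p = 0.0056, two-sided, Benjamini-Hochberg adjusted p = 0.044 over the 8 pairs) and Spearman's rho = 0.943 (exact permutation p = 0.017, adjusted p = 0.133). Without the 2 libraries farthest from the median of Cd74, r was 0.895. The other 7 pairs had r between -0.317 and 0.751 and adjusted exact permutation p of at least 0.422. H2-Aa followed its partners less closely, at r = 0.520 with Cd74 and r = 0.649 with H2-Ab1. The labels name no batch, so no value within batches can be given. These permutations moved libraries between time points. On deviations from the time-point means, r was 0.958 for Cd74 and H2-Ab1, 0.932 for Cd74 and H2-Aa and 0.914 for H2-Aa and H2-Ab1. The 2 endothelial markers, Stab2 and Kdr, had r = -0.964, and the rest lay between -0.25 and 0.751. With 2 libraries per time point these deviations mirror each other. The class II genes differed most between the ZT2 libraries (Cd74 155 and 104 RPKM, H2-Ab1 63.6 and 25.9 RPKM), so their r rests largely on that pair. With libraries exchanged only inside a time point, the exact permutation p for Cd74 and H2-Ab1 was 0.50. It was 0.25 for Stab2 and Kdr and for Cd74 and H2-Aa. As 0.25 is the smallest this design can give, the relations within time points are descriptions.

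Both endothelial markers had the lowest RPKM of the set, and both had their highest mean level at ZT12. Stab2, a scavenger receptor that clears hyaluronan from the blood, had 4.46 and 4.87 RPKM in the ZT0 libraries, 4.56 and 3.63 RPKM in the ZT2 libraries and 6.02 and 5.59 RPKM in the ZT12 libraries. Kdr, a receptor for vascular endothelial growth factor, had 10.8 and 8.29 RPKM in the ZT0 libraries, 8.59 and 11.9 RPKM in the ZT2 libraries and 11.8 and 12.8 RPKM in the ZT12 libraries. Stab2 at ZT12 did not overlap with either other time point, and Kdr at ZT12 did not overlap with ZT0. For ZT12 against ZT0 the log2 change of Stab2 was 0.27 ± 0.27 (SE; 95% interval -0.36 to 0.89), with an adjusted p of 0.706 in limma. The log2 change of Kdr was 0.35 ± 0.27 (SE; -0.28 to 0.97), with an adjusted p of 0.602 in limma. On this scale, which understates the change of genes as low as these, the intervals end at 1.85-fold for Stab2 and 1.965-fold for Kdr. They set no bound on a 2-fold rise in RPKM itself.

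Dcn encodes decorin, a small proteoglycan that binds collagen fibrils and is made by stellate cells and fibroblasts. It had 159 and 161 RPKM in the ZT0 libraries, 129 and 134 RPKM in the ZT2 libraries and 161 and 121 RPKM in the ZT12 libraries, the narrowest range of the set at 1.33-fold. ZT2 lay below ZT0 without overlap, at a log2 change of -0.28 ± 0.18 (SE; 95% interval -0.72 to 0.15) with an adjusted p of 0.527 in limma. Vim encodes vimentin, the intermediate filament of mesenchymal, endothelial and blood cells. It had 21.7 and 22.2 RPKM in the ZT0 libraries, 39.5 and 16.9 RPKM in the ZT2 libraries and 16.2 and 19.5 RPKM in the ZT12 libraries. The ZT12 libraries lay below those of ZT0, at a log2 change of -0.29 ± 0.37 (SE; -1.16 to 0.58) with an adjusted p of 0.775 in limma, and the largest value of Vim was that of ZT2 replicate 1.

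Summed by class, the levels showed no common course. The macrophage markers summed to 440 and 714 RPKM in the ZT0 libraries, 359 and 484 RPKM in the ZT2 libraries and 426 and 430 RPKM in the ZT12 libraries, of which Lyz2 made up 71.5% ± 6.24 (SD, n = 6). The class II genes summed to 195.7 and 194.2 RPKM in the ZT0 libraries, 272.8 and 175.5 RPKM in the ZT2 libraries and 240.1 and 220.4 RPKM in the ZT12 libraries. The endothelial pair summed to 15.2 and 13.2 RPKM in the ZT0 libraries, 13.2 and 15.6 RPKM in the ZT2 libraries and 17.9 and 18.4 RPKM in the ZT12 libraries. Dcn and Vim together had 180.9 and 183.7 RPKM in the ZT0 libraries, 168.9 and 150.5 RPKM in the ZT2 libraries and 177.1 and 140.8 RPKM in the ZT12 libraries. The mean sum at ZT12 was 0.742 times that at ZT0 for the macrophage markers, 1.18 times for class II, 1.28 times for the endothelial pair and 0.872 times for Dcn and Vim. The class II and the endothelial sums had both ZT12 libraries above both ZT0 libraries, while the other 2 sums had both below, and no test was made on these sums. The log2 ratio of the macrophage sum at ZT12 against ZT0 was -0.43, and without any one library it ran from -0.74 to -0.041, the last without ZT0 replicate 2. For ZT2 against ZT0 it was -0.45, and -0.063 without the same library. The class II sum at ZT2 against ZT0 had a log2 ratio of 0.20, and -0.15 without ZT2 replicate 1. For Dcn and Vim at ZT12 against ZT0 it was -0.20, and -0.041 without ZT12 replicate 2. The 2 ZT0 libraries differed 1.62-fold in the macrophage sum but by 1.01-fold in the class II sum and 1.02-fold in that of Dcn and Vim, so the macrophage markers were spread more widely than these classes at that time point.

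**Figure D5:**
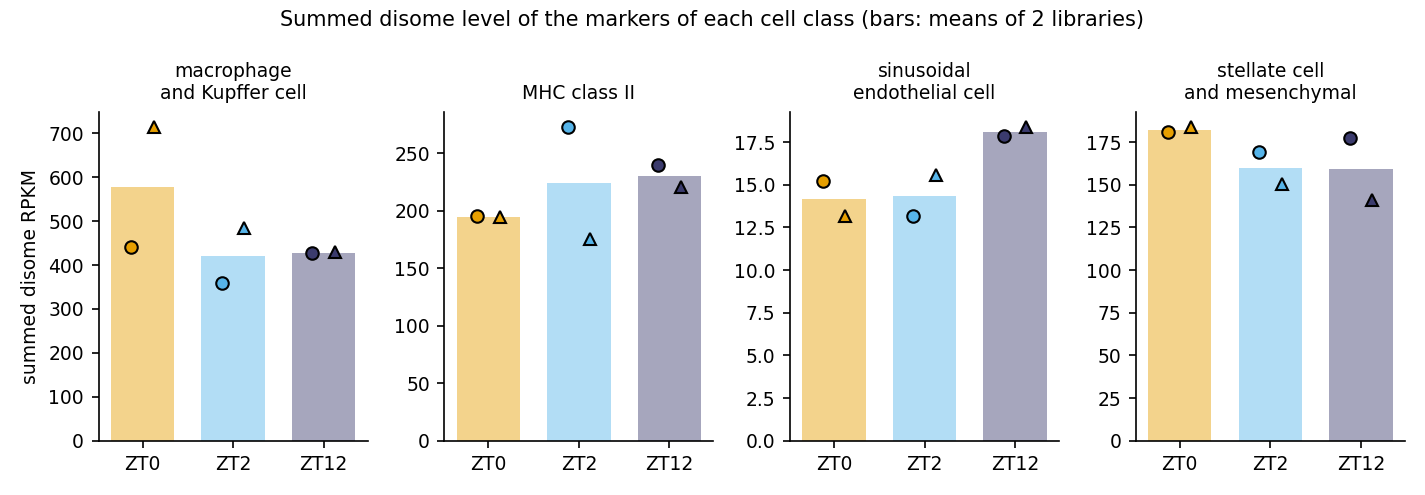
Summed disome RPKM of the markers of each cell class, with bars for the mean of 2 libraries at each time point and points for the libraries (circles replicate 1, triangles replicate 2). The macrophage sum is highest in ZT0 replicate 2, at 714 RPKM, and the class II sum in ZT2 replicate 1, at 272.8 RPKM.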

How the data were processed

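Disome footprint libraries of 3 time points were analysed, 2 per time point. The authors deposited 1 table of RPKM values per library, without header. The submitters' processing notes name edgeR, StringTie, STAR, Bowtie2 2.3.0, cutadapt and CASAVA 1.82 as tools and GRCm38.p2 and mm10 as builds. What each tool did, the annotation, the gene filter and the handling of multiply mapping reads are not given in the sources. Replicates were taken from the titles, where both libraries of a time point carry the same sample code and differ in the replicate label. The p-values measure the spread between these libraries, which were taken to be separate pools. The rule for the markers uses no measured value, but the markers and all lists were chosen with earlier results of these data known.

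Whole reads were recovered from the RPKM values through ratios between libraries, to a relative tolerance of 5e-13, for 8940 genes (99.99%), and through the coding length for 1. Coding lengths were multiples of 3 for 95.16% of genes. Totals were 6346387 to 12322651 reads per library, which were scaled near their upper quartile; counts of a gene whose 6 values share a factor may be too low. Limma 3.58.1 in R 4.3.3 was run on log2(RPKM + 1) of 8355 genes whose mean reached 1 RPKM, all 10 markers among them. The fit had a mean per time point, 3 residual degrees of freedom and a variance trend, with Benjamini-Hochberg adjustment over all genes; log2 changes are on that scale, which understates the change of low genes. The script was tested on simulated data with the same spread beyond counting error for all genes and libraries. That check did not cover the wider spread between the ZT2 libraries. All markers are named in full; the rule also allowed other genes of the cell type lists, but of 125 symbols on those lists only the 10 markers were matched. Intervals, correlations and permutation tests used SciPy 1.17.1. Other settings tried were the pseudocount, filter, scaling, variance prior, threshold, array weights, voom on recovered reads, a replicate block, fits on the compared time points alone and fits without any one library.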

Additional observations from a re-analysis of the deposited data

How the results depend on the processing

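Of 567 log2 changes of the 10 markers under other settings, 544 kept direction and side of the threshold, 22 changed direction and 1 passed it. None that changed direction passed limma's threshold. The filter, variance prior, threshold, array weights, replicate block and fits on the compared time points alone leave the log2 change itself as it was. So does leaving out a library of the time point not compared, so for these values the direction was fixed in advance. Scaling to the same summed RPKM, under which the median gene's log2 change is -0.11 (-0.04 as deposited) in ZT2 against ZT0 and 0.17 (0.03 as deposited) in ZT12 against ZT2, gave Cd74 -0.023 in the first and Lyz2 0.13 and Clec4f 0.089 in the second of these; voom gave the last 2 genes 0.060 and 0.040. Leaving out each library in turn gave the following ranges, listed only for markers whose direction changed in that comparison. For ZT2 against ZT0 they were Lyz2 -0.55 to 0.10, Kdr -0.12 to 0.31, Cd74 -0.22 to 0.35, H2-Ab1 -0.33 to 0.93 and Vim -0.36 to 0.82. For ZT12 against ZT0 they were Lyz2 -0.59 to 0.069 and Dcn -0.40 to 0.0057. For ZT12 against ZT2 they were Clec4f -0.35 to 0.21, Vim -1.11 to 0.069, Lyz2 -0.36 to 0.29, Cd74 -0.15 to 0.42, H2-Ab1 -0.40 to 0.86 and Dcn -0.12 to 0.29. The count of markers called stayed at 0 in all comparisons and settings but 2. The first was ZT12 against ZT2 without ZT2 replicate 2, for Vim at a log2 change of -1.11. There the lone ZT2 library is assumed to vary like the other groups, and more of all genes passed than in the main fit. With voom the F test called 1, Cd5l at an adjusted p of 0.041; over the other settings that of Cd5l ran from 0.096 to 0.389. In the pairwise comparisons voom also called more of all genes, 250 of 8355 in ZT12 against ZT0 and 356 in ZT12 against ZT2. The main fit called 79 and 172. No share of all genes is at hand for the voom F test. For the shifts in the markers, the cause was not tested. Replicate numbers did not pair the libraries, with correlations of deviations of -0.076, -0.019 and 0.018, and a fit with a replicate block called 0 markers in each of the 3 comparisons and in the F test. The log2 ratio of Dcn and Vim summed at ZT2 against ZT0 was -0.19, and 0.36 without Dcn, when Vim alone is left. The markers' median over the median gene, 7.16, was 4.09 with geometric means, 6.18 over tested genes and 6.17 without Lyz2; these 3 settings were chosen after seeing the data. Stab2 has no value with a filter at 5 RPKM. A negative binomial count test was not run, since the tables hold RPKM, and levels against hepatocyte genes were not computed because none was matched.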
